A study of Marchantia polymorpha with 12 samples.

Results

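Genes of the liverwort Marchantia polymorpha whose mean mixture of transcripts differed between control and wounded thalli are described here, one by one. Wounded thalli were collected 1 h after wounding, and in some of the genes the difference rests on few libraries. A gene's transcripts are the alternative RNAs annotated at it, and the isoform share of a transcript is its percentage of the gene's summed level in a library. Levels are in TPM, which adjusts a transcript's reads for its length and scales every library to the same total. Genes qualified if they had at least 2 annotated transcripts and a summed mean level of at least 5 TPM in each of the 4 groups. A gene was chosen if the mean share of a transcript differed by at least 20 percentage points between wounded and control thalli, in the same direction in both genotypes. That rule took 11 of 1902 qualifying genes, or 0.578%, from 3031 genes with more than 1 transcript and 19421 genes in all. The genes were thus chosen by their isoform shares in the wound contrast, which are given as a description without a test, and nothing is drawn from those shares.

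The samples were 14-day-old thalli, the flat plant bodies grown from gemmae, of the male accession Tak-1 and of the line Mperf15ko. Each genotype was collected either intact (control) or 1 h after its blades were cut (wounded), with 3 libraries in each of the 4 groups. A replicate was an independent pool of 12 plants. The lesion of Mperf15ko and the number of lines behind it are not described in the labels, and transcript levels do not check it: MpERF15, the gene named in the label, stood at 1.66 ± 0.165 TPM (SD, n = 3 here and throughout) in Tak-1 controls and 29.8 ± 8.44 TPM in wounded Tak-1, against 2.34 ± 0.926 and 26.0 ± 12.8 TPM in Mperf15ko.

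Plant genes yield alternative transcripts through alternative splicing, alternative transcription starts and alternative 3′ ends. A changed mixture can alter the encoded protein or how long the RNA lasts, even where the total level of the gene stays put. Splice choice in plants is set in part by SR proteins and glycine-rich or hnRNP-type RNA-binding proteins, which bind the precursor RNA.

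Libraries held 17.2 to 30.4 M estimated reads, and the 11 genes together took 0.0314% to 0.0435% of them. The number of reads behind a gene therefore mattered, and ranged from 72 in the thinnest library of Mp3g10180 to 2607 in the deepest of Mp1g20810. Reads that several transcripts share were apportioned by the quantifier, so a share carries an assignment error that the files do not give, and no counting interval is stated. Of 13 thallus and reproductive markers, 8 were matched by symbol. The air-chamber gene MpNOP1 lay at 14.4 to 28.4 TPM across libraries, MpSYP13A at 36.1 to 87.8 TPM, and the germ-line gene MpDUO1 at 0.117 to 1.03 TPM. None of the 8 was at 0. The summed level of the 8 was 81.5 to 102 TPM in Tak-1 controls and 154 to 178 TPM in wounded Tak-1, and 91.3 to 93.8 and 152 to 164 TPM in Mperf15ko. The markers did not move alike. MpSYP13A stood at 38.0 ± 2.55 TPM in control and 70.7 ± 3.02 TPM in wounded Tak-1, and the oil-body gene MpC1HDZ at 5.25 ± 1.21 and 26.3 ± 3.22 TPM. MpLFY stood at 7.81 ± 1.16 and 8.37 ± 0.549 TPM, and the oil-body gene MpSYP12B at 3.05 ± 0.687 and 2.8 ± 0.494 TPM. In whole thalli a change in the number of cells of a type and a change in RNA per cell cannot be told apart, and the part of these marker shifts in the isoform shares was not tested.

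Of the 11 genes, a symbol was available only for MpBZIP7 (Mp3g04360), a member of the bZIP family of DNA-binding transcription factors. The other 10 are named by their identifiers, and no function is given for them. By the gene table, 2 lay on chromosome 1, 1 on chromosome 2, 3 on chromosome 3, 1 on chromosome 6, 3 on chromosome 7 and 1 on chromosome 8. Shares of at least 1 transcript did not overlap between wounded and control libraries in 7 of the 11 genes in Tak-1, where 19.6% of qualifying genes had such a transcript. In Mperf15ko this held for 8 of the 11, where the background was 20%. In both genotypes with the same direction it held for 7, where the background was 4.94%. The choice of the genes used the same contrast, so these counts are no evidence about them.

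**Figure D1:**
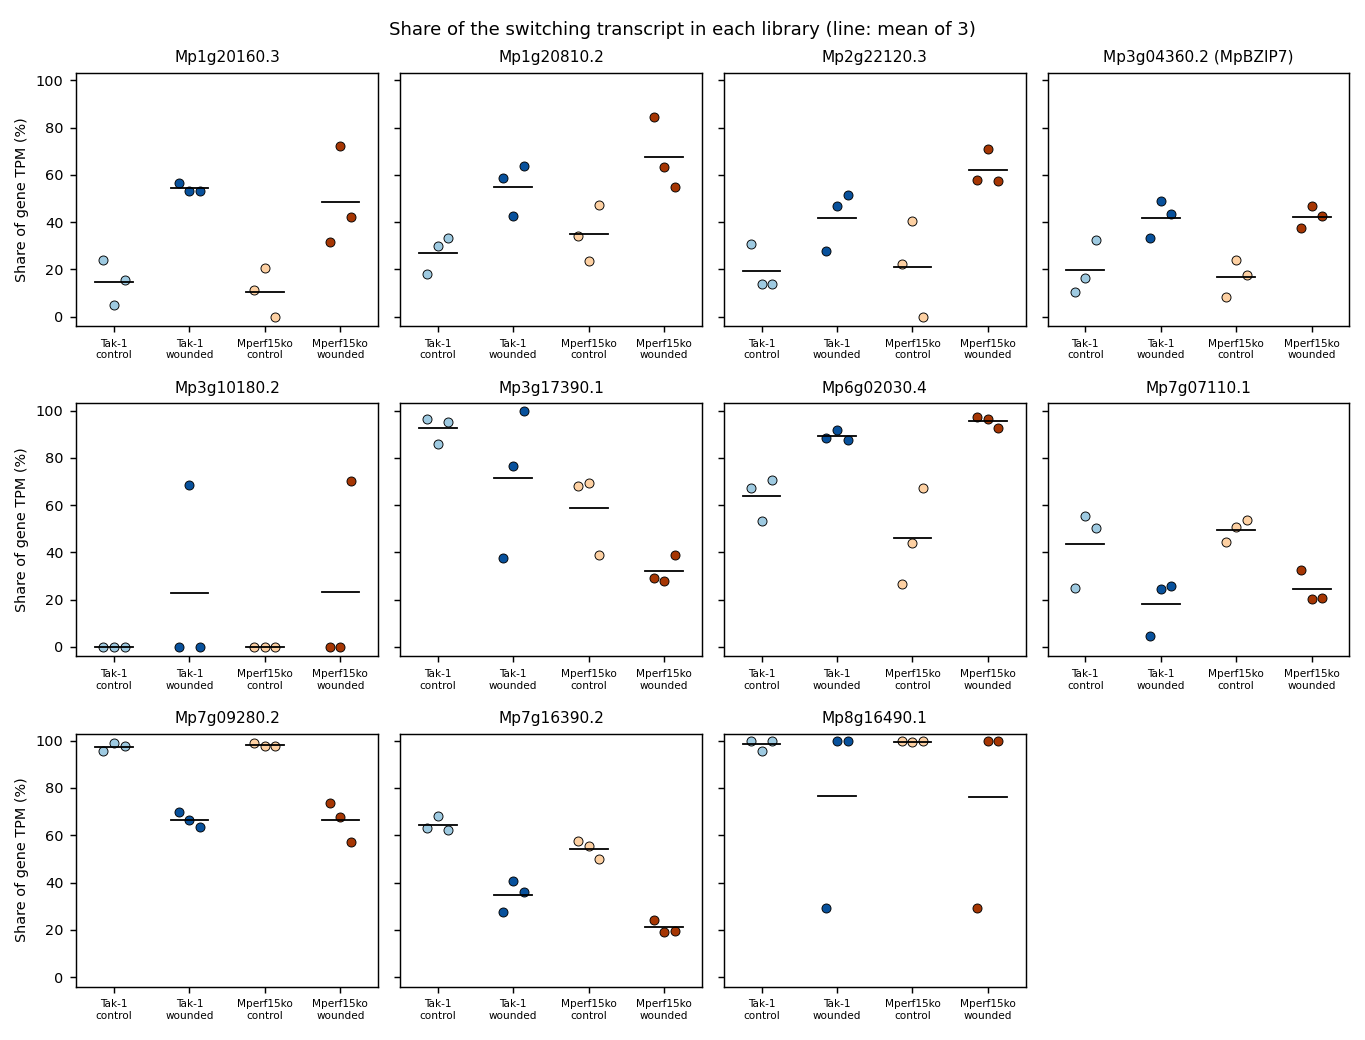
Share of the switching transcript (percent of the gene's TPM) in each of the 12 libraries for the 11 genes, with points for libraries and lines for group means. For Mp7g09280 the transcript that lost share, Mp7g09280.2, is drawn. In Mp7g09280 and Mp7g16390 the wounded libraries stand clear of the controls in both genotypes, whereas in Mp3g10180 and Mp8g16490 a single wounded library per genotype stands apart from the other 2.

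The tightest shift was in Mp7g09280, which has 2 transcripts of 2870 and 2225 bases. The share of the longer one, Mp7g09280.1, was 4.54%, 1.05% and 2.35% in replicates 1, 2 and 3 of the Tak-1 controls, and 30.4%, 33.5% and 36.4% in the same order after wounding. In Mperf15ko it was 1.16%, 2.06% and 2.37% in controls and 26.2%, 32.1% and 42.7% after wounding. All 6 wounded libraries were above all 6 controls. The mean share differed by 30.8 percentage points in Tak-1 and by 31.8 in Mperf15ko. The level of Mp7g09280.1 went from 0.67 ± 0.478 to 6.85 ± 0.776 TPM in Tak-1 and from 0.394 ± 0.127 to 7.11 ± 1.87 TPM in Mperf15ko. Its partner Mp7g09280.2 went from 24.2 ± 1.25 to 13.6 ± 1.03 TPM and from 20.9 ± 1.6 to 14.1 ± 2.55 TPM, and so remained the major form in every library. The level of the gene as a whole moved little, from 24.9 ± 1.5 to 20.5 ± 1.24 TPM in Tak-1 and from 21.3 ± 1.59 to 21.2 ± 2.19 TPM in Mperf15ko. Mp7g09280 and MpERF15 are close on their chromosome, with 6 genes listed between them in an assembly made from a female accession.

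In Mp7g16390 the shorter transcript gave way to the longer one. Mp7g16390.2, of 1587 bases, held 63.3%, 68% and 62.2% of the gene in Tak-1 controls and 27.5%, 40.7% and 36.1% in wounded Tak-1. In Mperf15ko it held 57.4%, 55.3% and 49.9% in controls and 24.2%, 19.2% and 19.6% after wounding. Again no wounded library reached a control, and the major form became Mp7g16390.1, of 2127 bases, in both genotypes. That transcript went from 5.47 ± 0.517 to 10.1 ± 1.41 TPM in Tak-1 and from 7.24 ± 0.319 to 15.7 ± 2.8 TPM in Mperf15ko. The shorter transcript went from 9.94 ± 0.433 to 5.38 ± 0.949 TPM and from 8.68 ± 1.66 to 4.13 ± 0.482 TPM. In mean level the longer form was higher and the shorter form lower after wounding in both genotypes, which was not tested.

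Mp1g20810 has 2 transcripts that differ in length by 9 bases, 3742 and 3733. The share of Mp1g20810.2 was 18.1%, 30.1% and 33.3% in Tak-1 controls and 58.7%, 42.8% and 63.6% in wounded Tak-1. It was 34.3%, 23.6% and 47.4% in Mperf15ko controls and 84.5%, 63.2% and 55% in wounded Mperf15ko. The libraries spread widely within each group, yet wounded and control libraries of a genotype did not overlap. Mp1g20810.2 went from 7.93 ± 2.23 to 21.8 ± 5.14 TPM in Tak-1 and from 13.4 ± 6.63 to 34.1 ± 9.88 TPM in Mperf15ko, while Mp1g20810.1 stood at 21.4 ± 3.16 and 17.7 ± 4.09 TPM, and at 23.6 ± 2.13 and 16 ± 7.38 TPM. The whole gene was higher after wounding, at 39.6 ± 2.83 against 29.4 ± 2.14 TPM in Tak-1 and 50.1 ± 4.42 against 37 ± 5.95 TPM in Mperf15ko.

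Mp1g20160 has 4 annotated transcripts, of which 3 exceeded 1% of the gene and Mp1g20160.4 was listed at 0. The share of Mp1g20160.3 was 23.9%, 5.04% and 15.5% in Tak-1 controls and 56.5%, 53.3% and 53% in wounded Tak-1. In Mperf15ko it was 11.2%, 20.6% and 0% in controls and 31.4%, 72.4% and 42.2% after wounding. Wounded libraries lay above the controls in both genotypes, and far closer together in Tak-1 than in Mperf15ko. Both other forms had lower mean shares after wounding. Mp1g20160.1 went from 45.8 ± 13.3% to 24 ± 5.84% in Tak-1 and from 26.5 ± 10.2% to 8.06 ± 7.99% in Mperf15ko. Mp1g20160.2 went from 39.4 ± 22.4% to 21.7 ± 4.41% and from 62.9 ± 8.49% to 43.3 ± 20.6%. The gene's level was nearly constant, at 6.34 ± 0.81 and 6.68 ± 0.347 TPM in Tak-1 and 6.76 ± 0.729 and 7.78 ± 0.838 TPM in Mperf15ko.

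MpBZIP7 has 2 transcripts, of 2419 and 2524 bases. The longer, Mp3g04360.2, held 10.6%, 16.3% and 32.4% of the gene in Tak-1 controls and 33.5%, 48.8% and 43.4% in wounded Tak-1. It held 8.22%, 24.1% and 17.7% in Mperf15ko controls and 37.5%, 46.8% and 42.4% in wounded Mperf15ko. The highest Tak-1 control came within a little over 1 percentage point of the lowest wounded library, and the Mperf15ko groups were well apart. The longer form went from 5.05 ± 2.48 to 14.2 ± 4.13 TPM in Tak-1 and from 4.97 ± 2.42 to 14.4 ± 3.89 TPM in Mperf15ko. The shorter form stayed the more abundant on average, at 21.2 ± 4.48 and 19.2 ± 2.14 TPM in Tak-1 and 24.8 ± 2.24 and 19.4 ± 2.44 TPM in Mperf15ko.

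**Figure D2:**
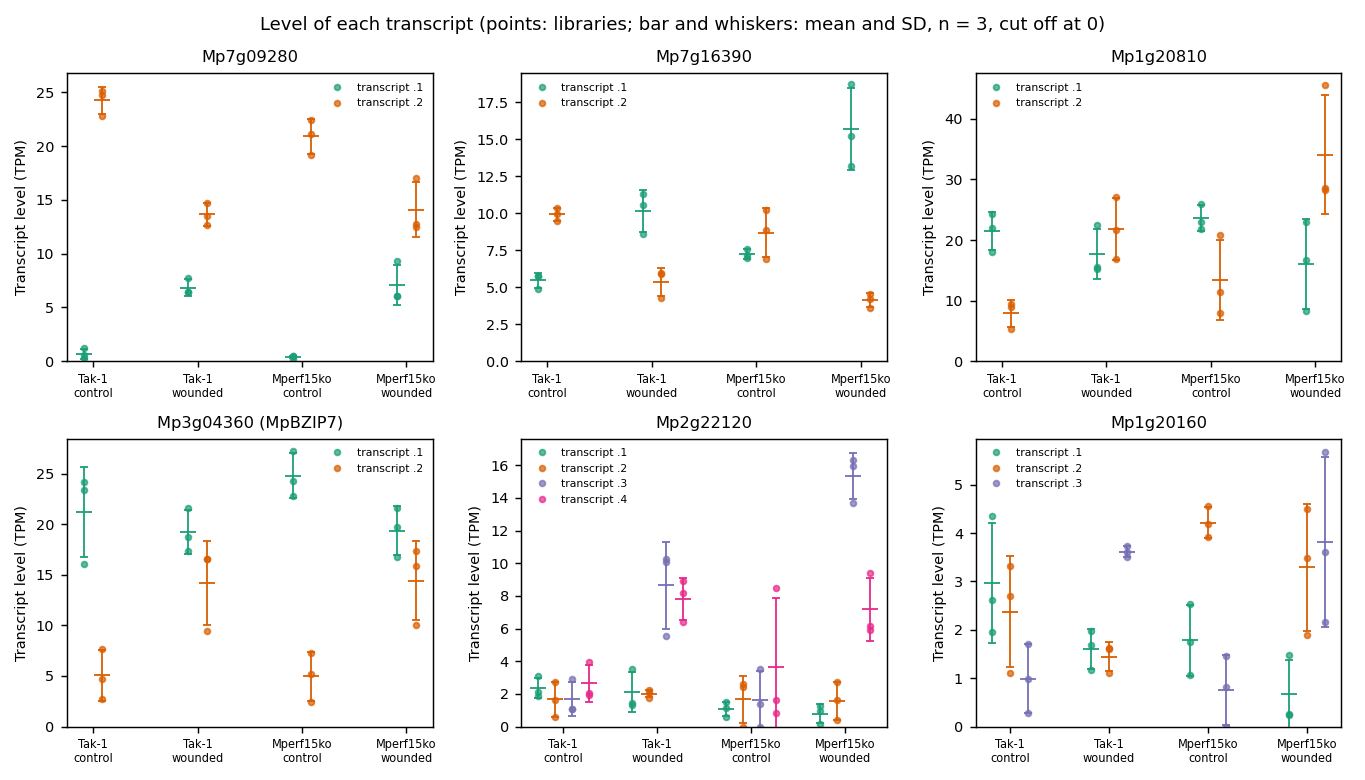
Level (TPM, mean with SD over 3 libraries, whiskers cut off at 0) of the transcripts of 6 of the 11 genes in the 4 groups, with points for libraries. In Mp7g09280 and Mp7g16390 1 form was higher and the other lower after wounding, while in Mp2g22120 the level of the whole gene was also higher.

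Mp6g02030 has 5 annotated transcripts, of which 3 exceeded 1%. Mp6g02030.4, its major form by group means, held 67.3%, 53.1% and 70.6% in Tak-1 controls and 88.3%, 91.6% and 87.7% in wounded Tak-1. It held 26.7%, 44% and 67.1% in Mperf15ko controls and 97.2%, 96.6% and 92.5% in wounded Mperf15ko. In replicates 1 and 2 of the Mperf15ko controls Mp6g02030.2 was the larger form, at 62.6% and 44.9%. For Mp6g02030.4 wounded libraries were more alike as well as higher, with an SD of 2.07 against 9.32 points in Tak-1 and of 2.59 against 20.3 points in Mperf15ko. Shares so close to their upper limit have little room to vary. The counterpart was Mp6g02030.2, with 137, 217 and 120 estimated reads in Tak-1 controls and 21, 0 and 29 in wounded Tak-1. In Mperf15ko it had 387, 213 and 61 reads in controls and 0 in each of the 3 wounded libraries. No fold is given for it, since a value listed at 0 may also be a read assignment that went wholly to another form.

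Mp2g22120 differed from the others in that the whole gene was much higher after wounding, at 20.6 ± 0.807 against 8.35 ± 0.942 TPM in Tak-1 and 24.9 ± 3.04 against 8.04 ± 1.52 TPM in Mperf15ko. The log2 fold changes were 1.29 (SE 0.13) and 1.63 (SE 0.13), given as a description. Its 4 transcripts are 2784 to 2835 bases long. The share of Mp2g22120.3 was 30.6%, 13.7% and 13.8% in Tak-1 controls and 27.6%, 46.8% and 51.4% in wounded Tak-1, so the groups overlapped. It was 22.4%, 40.4% and 0.000855% in Mperf15ko controls and 57.7%, 71.1% and 57.4% after wounding, without overlap. Mp2g22120.1 did separate the groups in both genotypes, with mean shares of 28.8 ± 9.8% and 10.2 ± 6.17% in Tak-1 and of 14.4 ± 8.6% and 3.13 ± 2.29% in Mperf15ko. In control replicate 3 of Mperf15ko, Mp2g22120.4 took 93.4% of the gene, against 12.9% and 18.8% in the other controls.

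In Mp7g07110 the shorter of 2 transcripts, of 870 against 1284 bases, gained share. Mp7g07110.1, the longer, held 24.7%, 55.6% and 50.3% in Tak-1 controls and 4.79%, 24.5% and 25.7% in wounded Tak-1. It held 44.3%, 50.7% and 53.9% in Mperf15ko controls and 32.4%, 20.4% and 20.7% in wounded Mperf15ko. A Tak-1 control overlapped the wounded libraries, and the Mperf15ko groups stood apart. The short form went from 10.3 ± 3.74 to 18.5 ± 3.04 TPM in Tak-1 and from 10.2 ± 0.915 to 21.1 ± 3.19 TPM in Mperf15ko.

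Another 3 genes met the rule but rested on few libraries. Mp3g17390.1 held 96.4%, 86% and 95.1% of its gene in Tak-1 controls and 37.4%, 76.4% and 100% in wounded Tak-1. In Mperf15ko it held 67.9%, 69.3% and 38.8% in controls and 29.3%, 27.8% and 38.9% after wounding. Wounded and control libraries overlapped in both genotypes, and without wounded replicate 1 the Tak-1 difference was −4.31 points. For Mp3g10180, Mp3g10180.2 was near 0 in 10 libraries, 68.7% in wounded replicate 2 of Tak-1 and 70.1% in wounded replicate 3 of Mperf15ko. For Mp8g16490, Mp8g16490.2 reached 70.6% in wounded replicate 1 of Tak-1 and 70.7% in wounded replicate 1 of Mperf15ko, where Mp8g16490.1 held the rest. Without those libraries the differences were close to 0 for Mp3g10180.2, and 1.58 and 0.260 points for Mp8g16490.1. The transcripts of Mp3g10180 differ in length by 1 base and the leading pair of Mp8g16490 by 3.

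**Figure D3:**
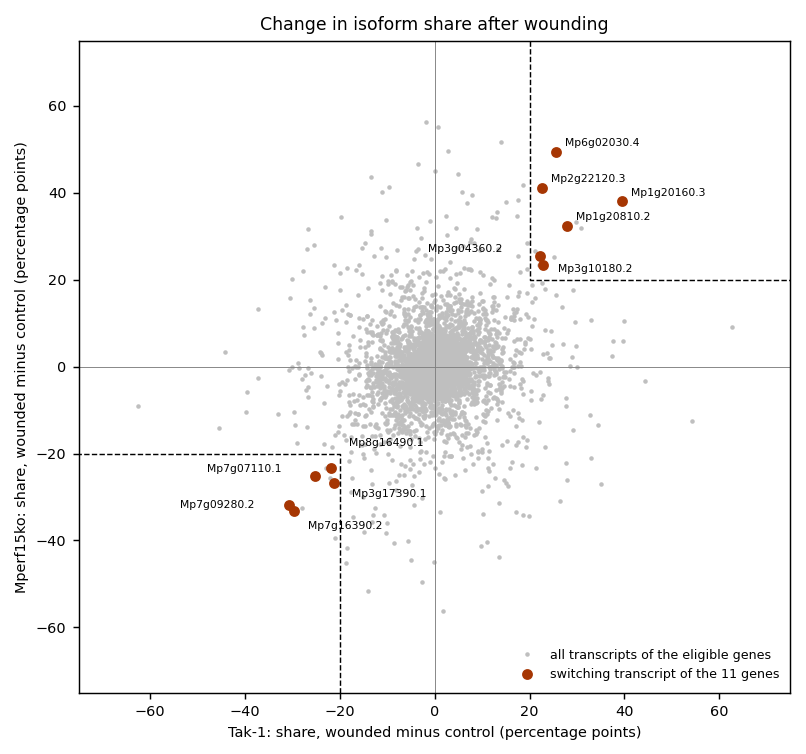
Difference in share between wounded and control thalli in Tak-1 (horizontal axis) and in Mperf15ko (vertical axis), in percentage points, for all transcripts of the 1902 qualifying genes, with the switching transcripts of the 11 genes in colour. Dashed lines mark the threshold of 20 points that chose them.

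Just inside the threshold were MpBZIP7 with 22.2 points in Tak-1 and 25.5 in Mperf15ko, Mp8g16490.1 with −22.0 and −23.3, and Mp3g17390.1 with −21.2 and −26.7. Just outside were Mp2g08000.2 with 19.6 and 22.4 points, Mp1g27670.2 with 19.5 and 28.4, and Mp8g03370.3 with 22.6 and 19.2. The most abundant transcript changed to the same other transcript in both genotypes in 4 of the 11 genes, Mp1g20160, Mp1g20810, Mp2g22120 and Mp7g16390, as it did in 0.789% of qualifying genes. The genes were chosen by the same mean shares, so this count is no evidence about them.

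The spread between replicates was part of the picture. Averaged over the 4 groups, the SD of the switching transcript's share ran from 3.44 points in Mp7g09280 and 4.11 in Mp7g16390 to 21.1 in Mp8g16490, with Mp3g10180 next to it and a median of 10.7. For the most abundant transcript of all qualifying genes the median was 5.57 points. These medians are not like for like, since they take different transcripts and the 11 genes were chosen by their share differences. Leaving out each library in turn kept Mp1g20160, Mp1g20810, Mp6g02030, Mp7g09280 and Mp7g16390 under the rule in 12 of 12 cases. MpBZIP7, Mp7g07110 and Mp8g16490 were kept in 10, and Mp2g22120, Mp3g10180 and Mp3g17390 in 9. Mp3g10180 and Mp8g16490 rest on 1 wounded library per genotype, so few runs could lose them and their counts do not show a steady shift. With medians of replicate shares Mp3g10180, Mp3g17390 and Mp8g16490 did not meet the rule.

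**Figure D4:**
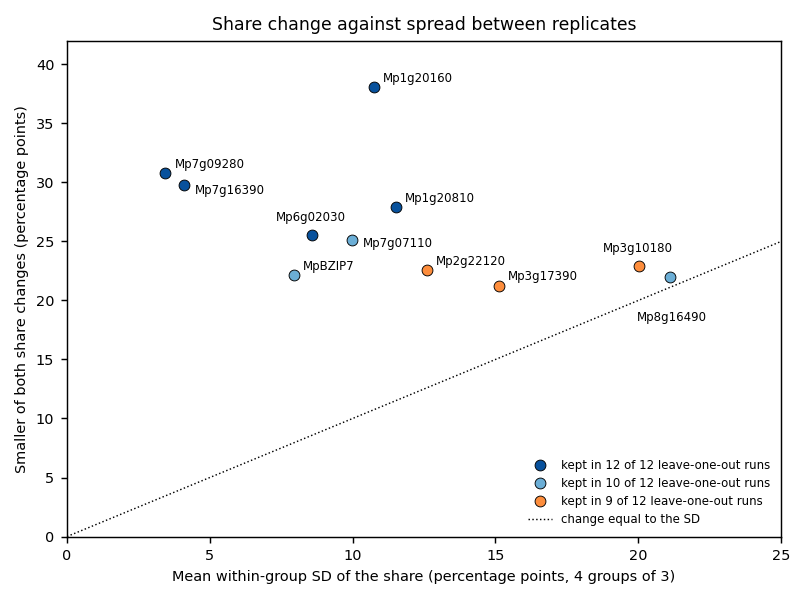
Smaller of the share differences in the 2 genotypes (percentage points) against the mean within-group SD of that share (percentage points, 4 groups of 3 libraries) for the 11 genes, coloured by how often a gene was kept when libraries were left out in turn. Mp7g09280 and Mp7g16390 combine a difference near 30 points with an SD near 4, and Mp3g10180 and Mp8g16490 lie close to the line where both are equal.

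The rule set no condition on transcript length, but its shares came from TPM, which adjusts reads for length. The exchanging pair of a gene, the transcripts that gained and lost most share, was also picked by the share changes that chose the genes. The length counts are thus not independent of the choice and are given as a description. The part of read assignment between transcripts of similar length was not tested. The transcript that gained most was the longer of the exchanging pair in 3 of the 11 genes, by 645 bases in Mp7g09280, 540 in Mp7g16390 and 105 in MpBZIP7. It was the shorter in 8, with a difference (gaining minus losing) of −414 bases in Mp7g07110 and of −196 to −1 in the other 7. Among all qualifying genes the longer transcript gained in 993, the shorter in 887, and 22 pairs were equal. The lengths of the exchanging pair differed by a median of 72 bases in the 11 genes and of 165.5 bases in all. The difference was at most 9 bases in 3 of the 11 (27.3%) and in 9.04% of all, and a multiple of 3 in 8 of the 11 (72.7%) and in 37.4% of all.

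Whether Mperf15ko and Tak-1 mixed their transcripts differently was a question that the rule did not touch. The share of each transcript was compared with edgeR's diffSpliceDGE, and 24 transcripts of 10 of the genes could be tested, since Mp3g10180.2 was too low. None passed in the comparison of the genotypes averaged over both treatments, where 5.58% of genes and 2.46% of transcripts tested were called. That background was itself unsteady: of 5888 transcripts 145 were called, against 42 without Tak-1 control replicate 1 and 351 without Mperf15ko wounded replicate 3. At an unadjusted p under 0.05 there were 3 transcripts, Mp3g17390.1, Mp3g17390.2 and Mp6g02030.2, and the smallest adjusted p was 0.0904. By limma on arcsine-transformed shares 0 passed, where 0.187% of transcripts did, with 7 at an unadjusted p under 0.05. By limma's voom with diffSplice 6 transcripts of Mp1g20160, Mp3g17390 and Mp7g16390 passed, with a smallest adjusted p of 0.00286. That tool called 18.2% of all transcripts in this comparison, so the 6 of 24 are to be read against that share and not against edgeR's.

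Among the transcripts of the 11 genes, the largest difference in mean share between genotypes was in Mp3g17390, in control and in wounded thalli. Mp3g17390.1 held 92.5 ± 5.64% of the gene in Tak-1 controls and 58.7 ± 17.2% in Mperf15ko controls, and 71.3 ± 31.6% and 32 ± 6.05% in the wounded groups. All 3 control libraries of Tak-1 exceeded all 3 of Mperf15ko. Mp1g20160.2 followed in controls, at 39.4 ± 22.4% against 62.9 ± 8.49%, with a wide spread in Tak-1. The difference in Mp7g16390.2 was smaller but tighter, with 64.5 ± 3.09% against 54.2 ± 3.89% in controls and 34.8 ± 6.68% against 21 ± 2.77% after wounding, lower in Mperf15ko each time and without overlap. Other transcripts of the 11 genes also did not overlap between genotypes after wounding, among them Mp1g20160.1 and Mp2g22120.3. How often this held over all qualifying genes was not counted, so nothing is read from it.

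In control thalli alone, edgeR called 0 of the 24 transcripts, where 0.597% of genes and 0.255% of transcripts tested were called. There 1 transcript had an unadjusted p under 0.05, against 3 by limma on transformed shares and 7 by voom with diffSplice. Neither of these called any of the 24, where they called 0.051% and 1.43% of all transcripts. In wounded thalli edgeR also called 0, where 1.36% of genes and 0.577% of transcripts tested were called, with 1 transcript, Mp6g02030.2, at an unadjusted p under 0.05 and an adjusted p of 0.0518. The 34 transcripts called among all by edgeR became 9 without Tak-1 wounded replicate 3 and 212 without Mperf15ko wounded replicate 3. Limma on transformed shares called 0 of the 24 there, where 0.119% of all were called, with 6 at an unadjusted p under 0.05. Voom with diffSplice called 4 transcripts of Mp3g17390 and Mp7g16390, where it called 8.61% of all transcripts. For the difference between the wound responses edgeR called 0, where 0.0426% of genes and 0.017% of transcripts were called, and each of the 3 tools had 1 transcript at an unadjusted p under 0.05. The limma tests also called 0 of the 24, where they called 0.051% (transformed shares) and 0.0679% (voom with diffSplice) of all. The rule bounds both responses from below, which limits how far they could differ.

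Gene totals, as reads summed over a gene's transcripts, were compared between genotypes with edgeR's quasi-likelihood test, and all 11 were tested. They were not adjusted for transcript length, so a gene that shifts to a longer form can gain reads without more RNA. In control thalli 2 passed, 1 in each direction, where 28.1% of all genes did (13.6% higher and 14.6% lower). Mp1g20810 was higher in Mperf15ko, by a log2 fold change of 0.33 (SE 0.11, adjusted p = 0.0365). Mp3g10180 was lower, by −0.95 (SE 0.23, adjusted p = 0.0086), with 5.26 ± 1.06 against 10.1 ± 2.21 TPM. In wounded thalli 3 passed, where 23.5% of all genes did (11.8% higher), and all 3 were higher in Mperf15ko: Mp7g16390 by 0.42 (SE 0.11, adjusted p = 0.0154), Mp7g07110 by 0.36 (SE 0.11, adjusted p = 0.0314) and Mp1g20810 by 0.35 (SE 0.11, adjusted p = 0.0334). In TPM, which does adjust for length, Mp7g16390 stood at 15.5 ± 1.06 in wounded Tak-1 and 19.8 ± 3.08 in wounded Mperf15ko. Mp7g07110 stood at 22.6 ± 1.92 and 27.9 ± 1.8 TPM, and Mp1g20810 at 39.6 ± 2.83 and 50.1 ± 4.42 TPM. The count after wounding was 1 without Tak-1 control replicate 3, without any of the 3 wounded Tak-1 replicates or without Mperf15ko wounded replicate 1, and 0 without Mperf15ko wounded replicate 3. In controls it was 1 without Tak-1 control replicate 1 or 3 or Mperf15ko control replicate 3, where Mp1g20810 lost its call. The median over the 11 genes was −0.01 in control and 0.06 in wounded thalli, beside −0.01 and 0.02 over all genes. For the difference between wound responses edgeR called 0 of the 11, where 1.07% of all genes were called, with Mp7g09280 at an unadjusted p under 0.05 (log2 0.29, adjusted p = 0.36). For the wound contrast itself, which the rule used, 3 of the 11 genes passed in each genotype, all higher after wounding. Of all genes 46.2% passed in Tak-1 (23.4% higher) and 43.6% in Mperf15ko (23.5% higher), and nothing is read from the counts.

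Candidate genes for RNA processing were read from a list of symbols, and none of them was among the 11. Of 6 SR genes, which encode serine/arginine-rich splicing regulators, MpSR5 fell after wounding in both genotypes and the other 5 did not pass in either, where 22.8% of all genes fell in Tak-1 and 20.1% in Mperf15ko. In counts scaled to library size (CPM), MpSR5 stood at 137 ± 10.8 in Tak-1 controls and 107 ± 5.46 in wounded Tak-1, a log2 fold change of −0.35 (SE 0.08, adjusted p = 0.00141), and at 130 ± 6.05 and 102 ± 3.16 in Mperf15ko (−0.35, adjusted p = 0.00159). Those next by adjusted p in Tak-1 were MpSR2 with 46.6 ± 2.99 and 41.7 ± 1.44 CPM, MpSR6 with 26.5 ± 0.546 and 24.4 ± 2.7 CPM, and MpSR1 with 99.6 ± 3.11 and 104 ± 4.71 CPM. MpCDC5, named for a splicing-associated factor, did not pass in either, with 38.2 ± 5.02 and 37.8 ± 1.4 CPM in Tak-1 and 34.1 ± 2.79 and 37.4 ± 1.51 CPM in Mperf15ko.

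Of the hnRNP, PTB and glycine-rich symbols 7 of 9 genes were tested, of which 5 fell and 0 rose in Tak-1, and 4 fell and 1 rose in Mperf15ko. Of all genes 22.8% fell in Tak-1, and in Mperf15ko 20.1% fell and 23.5% rose. The Tak-1 count was 3 without control replicate 2 or wounded replicate 1, where MpPTB2 and MpPTB4 lost their calls, and 4 without wounded replicate 3, where MpPTB7 did. The symbol of MpGRP7 was read as that of a glycine-rich RNA-binding protein. MpGRP7 had 1212 ± 52 CPM in Tak-1 controls and 892 ± 48.1 CPM in wounded Tak-1. That was lower by a log2 value of −0.44 (SE 0.08, adjusted p = 0.000262). In Mperf15ko it had 1268 ± 76.4 and 804 ± 25.6 CPM (−0.66, adjusted p = 6.94e-06). The other 6 carry MpPTB symbols, which may stand for another gene family, phosphate transporter B. Whether they stand for polypyrimidine-tract-binding proteins is not settled by the symbols. Of the 7 tested, only MpGRP7 has a symbol that was read as that of an RNA-binding protein without this doubt. The counts and medians of this list are therefore not read as a result about RNA-binding proteins as a group. MpPTB3 had 11.6 ± 3.06 and 5.9 ± 0.669 CPM in Tak-1 (−0.96, SE 0.18, adjusted p = 0.000446), MpPTB7 had 6.83 ± 1.67 and 3.56 ± 0.516 CPM, and MpPTB2 had 8.76 ± 3.68 and 4.45 ± 1.02 CPM. The gene that rose in Mperf15ko was MpPTB8, with 68.2 ± 13 and 89.7 ± 7.57 CPM (0.40, adjusted p = 0.0144), whose call was lost with upper quartile scaling and without control replicate 1 or 3 or wounded replicate 1 of Mperf15ko. The median log2 fold change was −0.04 in Tak-1 and 0.01 in Mperf15ko for the SR list and −0.83 and −0.66 for the hnRNP, PTB and glycine-rich list, beside −0.05 and −0.02 over all genes. No symbol matched the lists for SR protein kinases, for nonsense-mediated decay and the exon junction, or for mRNA 3′ end formation.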

How the data were processed

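Per the file headers, the deposited files list transcripts by row with their length, effective length, TPM and estimated count. CASAVA and Salmon 0.7.2 appear, without roles, among tools of the submitters' processing notes. Neither build nor annotation is given in the sources used here. Deposited TPM gave the shares. Deposited estimated counts, fractional for 32.8% to 37.6% of transcripts, were rounded to whole numbers, and for gene totals summed per gene first.

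With edgeR 4.0.16 in R 4.3.3, a mean per group was fitted to the 12 libraries (TMM, filterByExpr, quasi-likelihood): 14246 genes, and 5888 transcripts of 2347 genes with diffSpliceDGE. The common biological coefficient of variation was 0.126. Benjamini-Hochberg adjustment ran over all features tested, with a threshold of 0.05. limma 3.58.1 and DESeq2 1.42.0 gave alternatives, and the scripts were tested on simulated data. Symbols came from a table of assembly MpTak2_v7.1, made from a female accession, which matched 17386 (89.5%) of gene IDs. Chromosomes and the order of genes along them were also taken from its positions. The 11 genes and the lists were chosen with earlier results of these data known. All 11 genes are named, as are the 3 nearest on either side of the threshold and up to 4 tested genes per list with the smallest adjusted p.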

Additional observations from a re-analysis of the deposited data

How the results depend on the processing

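The number of genes chosen, 11, depended on the rule's settings. It was 34 with a threshold of 15 points and 2 with 30 points (Mp1g20160 and Mp7g09280), 31 with a floor of 2 TPM and 6 with 10 TPM, and 25 with medians of replicate shares, of which 8 were among the 11. Leaving out each library in turn gave 12 to 19 genes, which shared 8 to 11 with the 11. For isoform shares between genotypes, 0 of the 11 genes were called by edgeR, against 3 by limma's voom with diffSplice averaged over treatments and 2 in wounded thalli. Voom with diffSplice called more everywhere, 1073 and 507 of all 5888 transcripts in these comparisons against 145 and 34 by edgeR. Leaving out single libraries gave 0 to 1 gene averaged over treatments (1 without wounded replicate 1 or 2 of Tak-1), 0 to 1 in wounded thalli (1 without wounded replicate 2 of Tak-1 or control replicate 3 of Mperf15ko) and 0 to 1 for the difference between responses (1 without wounded replicate 2 of Tak-1). For gene totals, leaving out single libraries gave 1 to 2 genes in control thalli (1 without Tak-1 control replicate 1 or 3 or Mperf15ko control replicate 3) and 0 to 3 in wounded thalli (0 without Mperf15ko wounded replicate 3). With the replicate number as a block, 1 gene was called in control thalli in place of 2. Same-numbered libraries did not deviate together, with 18 correlations from −0.313 to 0.225 of which 4 exceeded 0.1, so the numbers are not taken to pair samples. The block moved no other count for these genes, but took edgeR's calls over all transcripts from 145 to 57 averaged over treatments, from 15 to 9 in control thalli, from 34 to 15 in wounded thalli and from 1 to 0 for the difference between responses. Mp3g10180 stayed lower in Mperf15ko controls under all 17 alternatives, while Mp1g20810 lost its call in 5 in controls and 7 after wounding, Mp7g07110 in 9 and Mp7g16390 in 2. The cause was not tested. Depth limits Mp3g10180 most, with 72 to 236 reads per library.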

Other observations

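The near-all-or-none shares of Mp3g10180.2 and Mp8g16490.2 had counterparts elsewhere. Among the 1902 qualifying genes, 6 transcripts of 6 genes (0.315%) were under 1% in at least 9 of the 12 libraries and over 50% in at least 1, and 2 of these are in the genes described above. The 9 values over 50% ran from 55.7% to 99.5% with a median of 70.6%, and 5 of them lay between 65% and 75%. They fell in 6 wounded and 3 control libraries' values. Those of Mp3g10180.2 and Mp8g16490.2, in genes that the rule chose for a wound difference, were all in wounded libraries and all between 65% and 75%. The others were Mp3g05030.2 at 86.2% in control replicate 1 of Mperf15ko, Mp4g00350.3 at 68.5% in control replicate 3 of Tak-1, Mp5g06370.2 at 90.2% in control replicate 1 of Tak-1, and Mp6g08210.1 at 55.7% and 99.5% in wounded replicates 2 and 3 of Mperf15ko. These transcripts differed from the main transcript of their gene by a median of 4 bases, and by at most 9 bases in 5 of the 6. This set was noticed in the data and picked by its values, so it carries no test.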
